A study of Mus musculus with 8 samples.

Results

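Expression of 48 nuclear genes that copy, repair and transcribe mitochondrial DNA (mtDNA), supply its nucleotides, stabilise or degrade mitochondrial RNA, or regulate mitochondrial biogenesis was examined in the right ventricle of POLG mutant and wild type (WT) mice. The 48 genes were listed by name according to function, though with earlier results of these data known. Each was matched by symbol to 1 of the 55421 genes of the expression table, by the highest mean where a symbol had several entries. By function, 13 belonged to replication and repair, 3 to nucleotide supply, 9 to transcription, 18 to RNA stability and decay and 5 to biogenesis regulators. A mean of at least 1 FPKM over the 8 libraries was reached by 40 of them and by 10236 genes in all.

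The POLG group held 4 female mice, libraries E to H, homozygous for the D257A mutation of Polg, a change present throughout the body that removes the proofreading activity of the mtDNA polymerase. The WT group held 4 females, libraries A to D, from the same heterozygous breeding, and all mice were 9 to 10 months old and carried no other stated allele or treatment. Poly(A) RNA of each right ventricle was sequenced as 1 library, and expression is given as FPKM, fragments scaled to transcript length and to the fragments mapped in the library, so levels can be compared between genes per length. The D257A mutation changes an amino acid and does not remove the transcript, so the FPKM of Polg did not check the genotype labels.

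Mitochondria carry their own small circular genome, but every protein that replicates, transcribes or degrades it is encoded in the nucleus and imported. Replication runs on polymerase gamma, the Twinkle helicase and a single-strand binding protein. Transcription by the polymerase Polrmt with Tfam and Tfb2m gives long transcripts spanning many genes, which are cut, polyadenylated and then protected by the Lrpprc and Slirp complex or degraded by the Supv3l1 and Pnpt1 complex. In heart, which depends on oxidative metabolism, the coactivators Ppargc1a and Ppargc1b act with the transcription factors Nrf1, Gabpa and Esrra on many nuclear genes of mitochondria.

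The mutated codon of Polg is shown because it defines the POLG group. This codon lies in exon 3 of 23, within the coding sequence, at chr7:79461731-79461733 on the minus strand of GRCm38 in the GENCODE transcript ENSMUST00000073889.13. The reference sequence of codons 247 to 267 is printed 5′ to 3′, with the aspartate codon that the mutation replaces in capitals.
Polg codons 247 to 267: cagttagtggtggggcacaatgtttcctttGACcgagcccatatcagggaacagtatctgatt

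Promoter windows of 300 bases, from 250 before to 50 after each start in RefSeq on GRCm38.p6, were present for 41 of the 48 genes. The ETS core CCGGAAG, the type of sequence bound by Gabpa, was searched on both strands and found in 18 of the 41 (43.9%), against 20.7% of the 7446 windowed genes that were tested for expression and 9.93% of all 27025 genes with a window. The Nrf1 core is GCGCA, any base and GCGC in a row. It stood in 7 of the 41 (17.1%), against 12.1% of the tested genes and 5.19% of all genes with a window. The 41 include genes below the expression filter, which the tested genes leave out, so these are unlike sets. Such genes were Exog, Dna2 and Fastkd3 among those with an Nrf1 core, and Polg2 and Mterf1a among those with an ETS core. The estrogen-related receptor core CAAGGTCA stood in 1, Twnk (2.44%), against 1.26% of the tested genes. A match describes letters in the window and is not a shown binding site. The ETS core was present in 5 of 8 transcription genes, 7 of 17 RNA stability genes, 4 of 10 replication genes, 1 of 2 nucleotide genes and 1 of 4 regulators.

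The following 30-base stretches are shown because they belong to genes whose values are described below and include both genes whose groups overlapped and genes whose groups did not. The capitals mark the motif. Where a core lies on the opposite strand the capitals show its reverse complement, which is CTTCCGG for the ETS core and, for the Nrf1 core of Polrmt, GCGC, any base and TGCGC. Each line gives the strand of the gene, on which the sequence is read.
Polg, ETS core (chr7:79466294-79466323, minus strand): ggaggacctcacCCGGAAGtccctctgcac
Twnk, first ETS core (chr19:45006436-45006465, plus strand): actaaccggtgaCTTCCGGttccggggttg
Twnk, second ETS core (chr19:45006480-45006509, plus strand): tggagagttttgCTTCCGGagtcaccgcga
Twnk, estrogen-related receptor core (chr19:45005528-45005557, plus strand): tagggtattcaCAAGGTCActgcacctagc
Fastk, ETS core (chr5:24445276-24445305, minus strand): cgtgcgcatttcCCGGAAGcggagggcggg
Tfam, ETS core (chr10:71238074-71238103, minus strand): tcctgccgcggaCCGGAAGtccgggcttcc
Polrmt, ETS core (chr10:79746607-79746636, minus strand): accctaagagcgCTTCCGGcagtcgcagaa
Polrmt, Nrf1 core (chr10:79746568-79746597, minus strand): cctgcaggcgGCGCGTGCGCgtgcgcactg
Ptcd2, ETS core (chr13:99344727-99344756, minus strand): agcccgcctccgCCGGAAGtggtcctacca
The ETS core began 38 bases before the start in Polg, 47 in Tfam, 58 in Fastk and 66 in Ptcd2. The Nrf1 core of Polrmt overlaps a second match that begins 6 bases further on, and each window was counted once. The receptor core and the ETS cores of Twnk belong to windows of different annotated starts of that gene.

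Sequencing depth, estimated from the step that 1 fragment adds to low FPKM values, was 15.3 to 22.1 M fragments in POLG and 13.6 to 22.9 M fragments in WT (M, mega). Library H of POLG stood apart: it had 9548 genes at 1 FPKM or more, against 10113 to 10612 in the other 7 libraries, and its median ratio scaling factor was 0.871, against 0.987 to 1.10. Cardiomyocyte markers were abundant in all libraries of this heart tissue, and their sum over 8 genes was 6756 to 7586 FPKM in POLG and 8506 to 10398 FPKM in WT, without overlap. Of these 8, Myh6 and Tnni3 were called lower in POLG (limma adjusted p = 0.0370 and 0.00892), against 2.12% of all genes. Ryr2, Myl2 and Pln also lay lower in every POLG library but were not called. Tnnt2, Myl3 and Actn2 overlapped, and Actn2 averaged 358 FPKM in POLG and 354 FPKM in WT. The sum weighs abundant genes most, and the most abundant was Myh6, at 2162 FPKM in POLG and 3315 FPKM in WT. The 5 erythroid markers summed to 2722 to 4885 FPKM in POLG and 890 to 1956 FPKM in WT, and 4 of them were called higher in POLG. Hbb-bs, the remaining one, also lay higher in every POLG library but was not called (limma adjusted p = 0.0541). The 6 fibroblast markers summed to 45.4 to 76.9 FPKM in POLG and 78.7 to 108 FPKM in WT, with none called, and the 4 smooth muscle markers to 26.8 to 55.0 FPKM in POLG and 71.6 to 98.0 FPKM in WT, with 1 called. Endothelial markers (6 genes) summed to 151 to 206 FPKM in POLG and 118 to 163 FPKM in WT. Macrophage markers (6 genes) summed to 68.2 to 91.2 FPKM in POLG and 59.9 to 73.1 FPKM in WT. Both of these sums overlapped, and none of their genes was called. The atrial light chain Myl7 was at 51.7 and 110 FPKM in WT C and D, and Sln was listed at 0 in the other 6 libraries. Nppa, also on the atrial list, was not confined to C and D. It was at 66.6 to 199 FPKM in POLG, 37.9 and 52.3 FPKM in WT A and B, and 196 and 480 FPKM in WT C and D. WT C and D differed in more than atrial markers. Their depths were 13.6 and 16.3 M fragments, against 20.8 and 22.9 M in WT A and B. In C and D 6 nuclear RNAs summed to 430 and 393 FPKM, against 68.5 to 226 FPKM in the other 6 libraries. The 6 mesothelial markers summed to 12.2 and 10.9 FPKM, against 2.03 to 3.85 FPKM. The part that these differences play in the results was not tested, and in ventricle homogenate fewer cells of a type and less RNA per cell cannot be told apart.

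Across the 40 genes tested, differences between POLG and WT were small, and a single gene passed the test. Endog, the mitochondrial nuclease endonuclease G, was lower in POLG, and none was higher (limma on log2(FPKM + 1), Benjamini-Hochberg adjusted p under 0.05 over all 10236 genes). Among all genes tested, 0.694% were called higher and 2.12% lower, so 1 of 40 (2.5%) is near the background. At an unadjusted limma p under 0.05, 10 of the 40 (25%) were lower, against 17.6% of all genes, and 1 (2.5%) was higher, against 4.61%. In 8 of the 40 (20%) every POLG library lay below every WT library, against 12.9% of all genes, and in none did every POLG library lie above, against 2.96%. The 8 were Polg, Twnk, Mgme1, Endog, Tfb1m, Fastk, Fastkd1 and Esrra.

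The size of the shift, though not the sign of its median, depended on scaling. The log2 fold change was below 0 in 35 of the 40 genes (87.5%), against 68.3% of all genes, with a median of -0.13 over the 40 and -0.087 over all genes. With median ratio scaling, which brought the median of all genes to 0.0047, 26 of the 40 (65%) were below 0, against 48.9% of all genes, and the median of the 40 was -0.041. It was -0.053 after quantile normalization, with 28 of the 40 (70%) below 0 against 51.4% of all genes. After scaling to the nuclear-encoded genes it was -0.16, against -0.12 over all genes, with 37 of the 40 below 0 against 74.2% of all genes. The split of all calls moved with the scaling. On the deposited FPKM 71 genes were higher in POLG and 217 lower. Median ratio scaling gave 129 higher and 120 lower genes, and quantile normalization gave 128 that were higher and 140 that were lower. After median ratio scaling, 5 of the 40 (12.5%) lay lower in every POLG library, namely Polg, Twnk, Mgme1, Endog and Tfb1m, against 6.85% of all genes, and 1 (2.5%), Ptcd2, lay higher, against 6.68%. After scaling to the nuclear-encoded genes 11 of the 40 (27.5%) lay lower, against 14.4% of all genes. Polg was not among them, and Dguok, Pnpt1, Angel2 and Grsf1 were added.

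**Figure D1:**
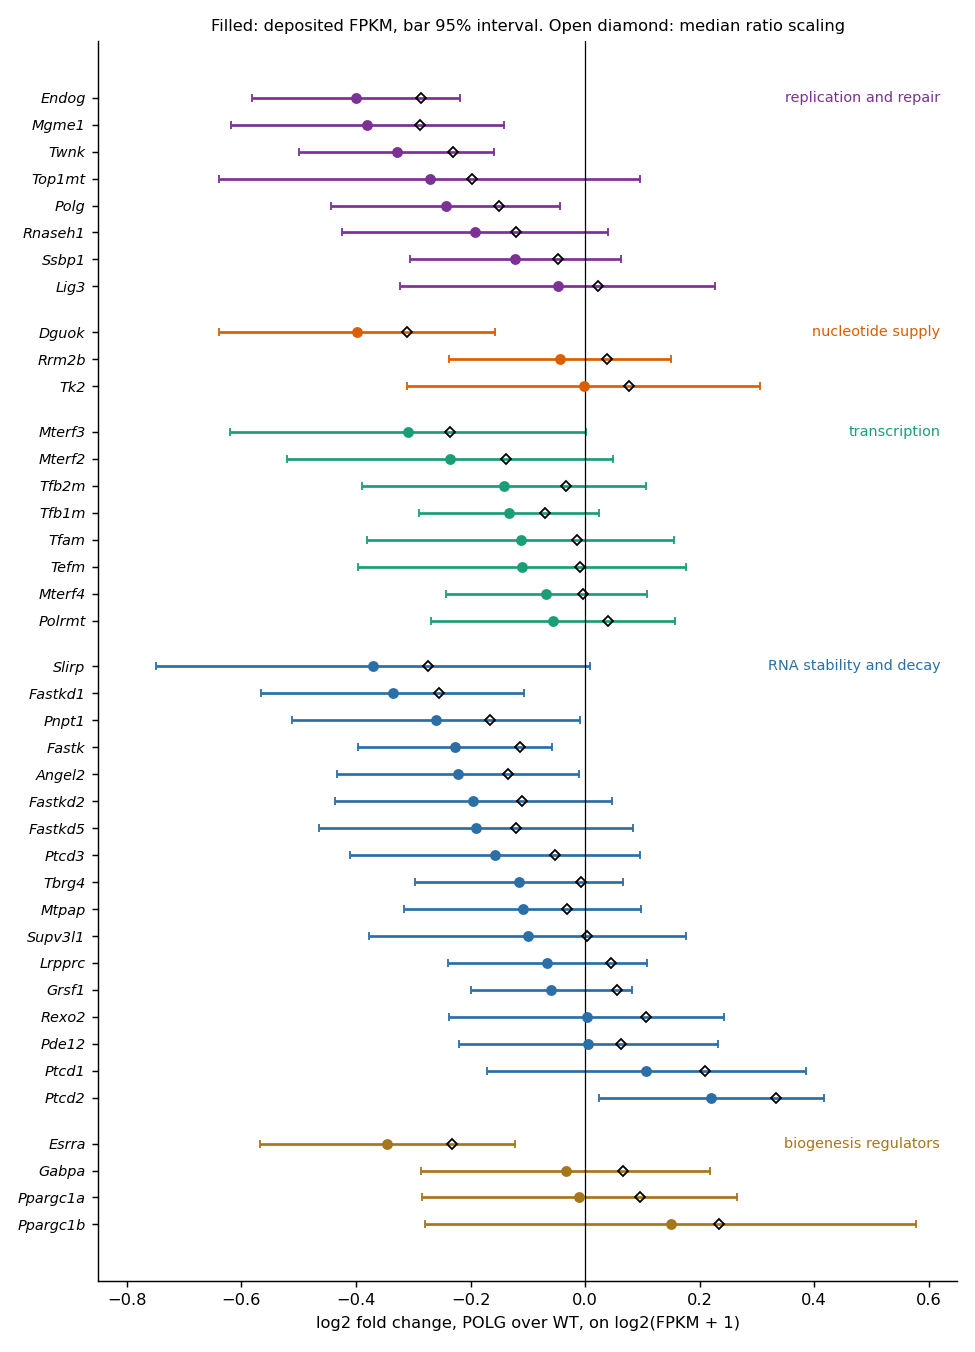
Log2 fold change of each of the 40 genes tested, POLG over WT, on log2(FPKM + 1), grouped by function. Filled points are the deposited FPKM with 95% intervals from limma, and open diamonds the same after median ratio scaling; 35 filled points lie below 0, from -0.40 for Endog to 0.22 for Ptcd2, and each diamond lies to the right of its point.

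Replication and repair genes had the lowest median, -0.26 on the log2 scale over 8 tested genes, against -0.087 over all genes. After median ratio scaling it was -0.17, against 0.0047. All 8 were below 0 on the deposited FPKM, against 68.3% of all genes, and 7 of 8 after median ratio scaling, against 48.9%. In 4 of the 8 (50%) every POLG library lay below every WT library, against 12.9% of all genes: Endog, Mgme1, Twnk and Polg. Endog was at 24.1, 27.0, 29.1 and 24.8 FPKM in POLG E to H, against 34.9, 35.8, 32.7 and 36.2 FPKM in WT A to D. The highest POLG library was thus below the lowest WT library, with 26.2 ± 2.25 FPKM in POLG and 34.9 ± 1.55 FPKM in WT (SD, n = 4 each). Its log2 fold change was -0.40 (SE 0.080, 95% interval -0.58 to -0.22, limma adjusted p = 0.0401). The call ended without any single library (adjusted p = 0.0634 to 0.123), after median ratio scaling (adjusted p = 0.0741) and without WT C and D (adjusted p = 0.165), whereas the groups still did not overlap after median ratio scaling. Endog lies at chr2:30171493-30174069 on the plus strand, and its promoter window held none of the 3 motifs.

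Twnk encodes Twinkle, the helicase that unwinds mtDNA ahead of the polymerase, and lies at chr19:45005663-45012762. It was at 5.02, 5.07, 4.91 and 4.23 FPKM in POLG E to H, against 6.36, 6.10, 6.38 and 6.30 FPKM in WT A to D. The WT libraries were tightly grouped and all above the POLG libraries, of which H was the lowest. The log2 fold change was -0.33 (SE 0.075), which did not pass the test (limma adjusted p = 0.0551), although it passed when the filter was raised to 5 FPKM (adjusted p = 0.0449).

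Polg itself, the catalytic subunit that carries the mutation, lies at chr7:79446231-79466362 on the minus strand. Its level was 3.64, 3.88, 3.69 and 3.13 FPKM in POLG E to H, against 4.61, 4.37, 3.89 and 4.84 FPKM in WT A to D. The groups came apart by a narrow margin, POLG F against WT C. The transcript averaged 3.58 ± 0.322 FPKM in POLG and 4.43 ± 0.404 FPKM in WT (SD, n = 4 each). Its log2 fold change was -0.24 (SE 0.088, 95% interval -0.44 to -0.044), which did not pass the test (limma adjusted p = 0.159). Polg2, the accessory subunit, was below the filter at 0.464 FPKM in POLG and 0.552 FPKM in WT.

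Mgme1, an exonuclease that trims single-stranded DNA ends and flaps during mtDNA replication, was at 3.74, 3.56, 3.34 and 2.79 FPKM in POLG E to H, against 3.97, 4.57, 4.76 and 5.39 FPKM in WT A to D. All POLG values were lower, and the log2 fold change was -0.38 (SE 0.105, limma adjusted p = 0.0880). For the 4 other tested genes the groups overlapped. Ssbp1, the single-strand binding protein, averaged 1.63 FPKM in POLG and 1.86 FPKM in WT, Top1mt, the mitochondrial topoisomerase, 1.53 and 2.09 FPKM, Rnaseh1, which removes RNA from RNA-DNA hybrids, 1.42 and 1.77 FPKM, and the ligase Lig3 1.41 and 1.51 FPKM in the same order. Below the filter were Top3a, Exog, Dna2 and Primpol, at group means between 0.115 and 0.811 FPKM.

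**Figure D2:**
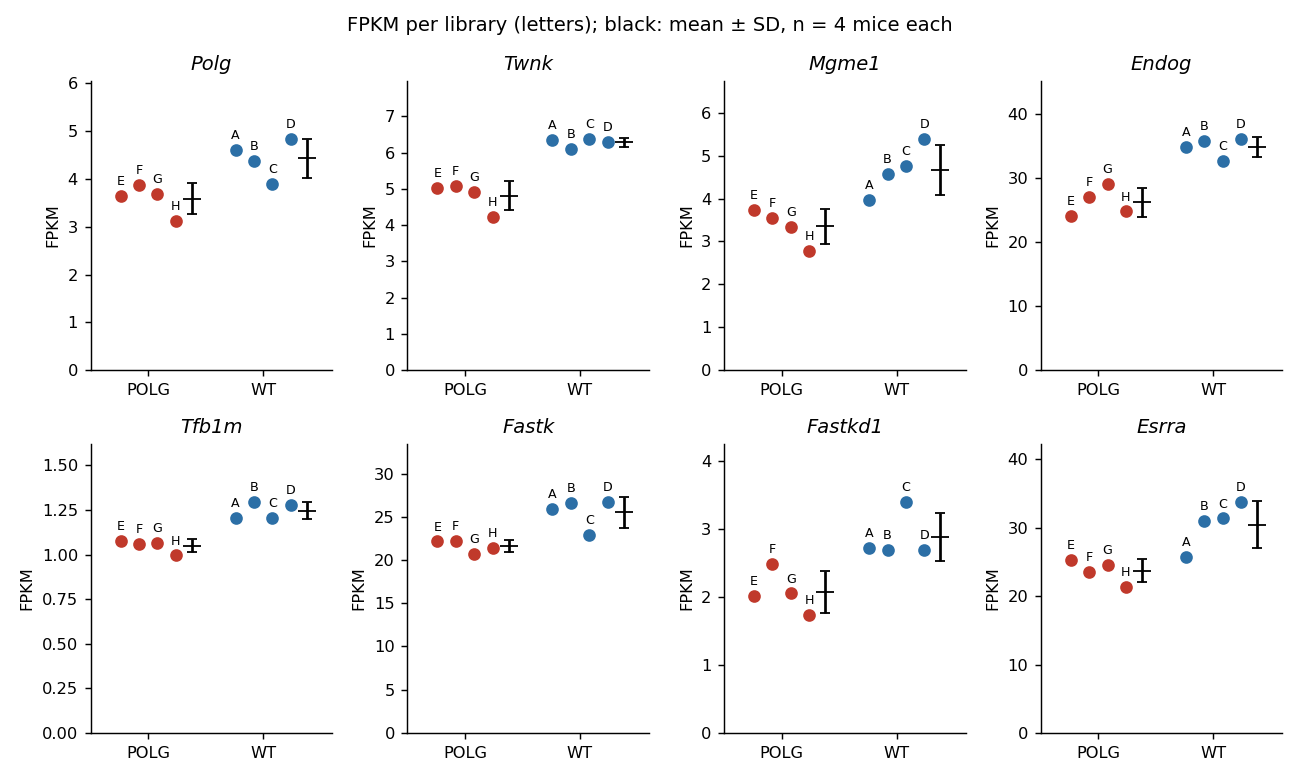
FPKM of the 8 genes for which every POLG library lay below every WT library, 1 point per library with its letter, POLG left and WT right, black marks giving mean ± SD of 4 mice; axes start at 0. The gap is wide for Endog, at most 29.1 FPKM in POLG and at least 32.7 FPKM in WT, and narrow for Polg and Esrra.

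Of the nucleotide supply genes, which provide deoxynucleotides in cells that do not divide, none passed the test. Their median log2 fold change was -0.044 over 3 genes, against -0.087 over all genes, and 0.037 after median ratio scaling, against 0.0047. Dguok, the mitochondrial deoxyguanosine kinase, was at 2.09, 2.10, 2.57 and 2.16 FPKM in POLG E to H, against 2.54, 3.48, 3.34 and 3.73 FPKM in WT A to D. POLG G and WT A overlapped, all other POLG values being lower than all WT values, and the log2 fold change was -0.40 (SE 0.106, limma adjusted p = 0.0797). Tk2, the mitochondrial thymidine kinase, averaged 1.84 FPKM in POLG and 1.83 FPKM in WT, with a log2 fold change interval of -0.31 to 0.30. Rrm2b, a ribonucleotide reductase subunit, averaged 2.30 FPKM in POLG and 2.41 FPKM in WT, also with overlap.

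The transcription machinery showed a median log2 fold change of -0.12 over 8 tested genes, against -0.087 over all genes. After median ratio scaling it was -0.023, against 0.0047. None was called, and 1 (12.5%) lay lower in every POLG library, against 12.9% of all genes. Tfam, which packages mtDNA and activates its promoters, was at 6.42, 6.28, 6.44 and 4.31 FPKM in POLG E to H, against 6.01, 6.38, 6.75 and 6.29 FPKM in WT A to D. Only POLG H was low, the other 3 POLG libraries lying within the WT range, and the log2 fold change was -0.11 (95% interval -0.38 to 0.16, limma adjusted p = 0.611). Without POLG H it was 0.0058.

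Polrmt, the mitochondrial RNA polymerase, was at 4.66, 3.58, 4.21 and 4.77 FPKM in POLG E to H, against 4.21, 4.79, 4.73 and 4.26 FPKM in WT A to D. The values of POLG F and G lay below all WT values and those of E and H within the WT range (log2 fold change -0.056, 95% interval -0.27 to 0.16, limma adjusted p = 0.769), and the sign turned after median ratio scaling (0.040). Tfb1m, the methyltransferase that modifies the small ribosomal RNA, was at 1.08, 1.06, 1.07 and 0.995 FPKM in POLG E to H, against 1.20, 1.30, 1.21 and 1.28 FPKM in WT A to D. These low values were separated and closely spaced within each group, with a log2 fold change of -0.13 (SE 0.069, limma adjusted p = 0.294).

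Tfb2m, the initiation factor that melts the promoter, averaged 11.6 FPKM in POLG and 12.9 FPKM in WT, and Tefm, the elongation factor, 6.10 FPKM in POLG and 6.60 FPKM in WT. In the family named for transcription termination, Mterf2 averaged 5.19 FPKM in POLG and 6.24 FPKM in WT, Mterf3 1.73 FPKM in POLG and 2.38 FPKM in WT, and Mterf4 1.18 FPKM in POLG and 1.28 FPKM in WT, none passing the test. Mterf1a was below the filter, and since mice carry a near-identical copy, Mterf1b, its value is uncertain.

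The RNA stability and decay genes had a median log2 fold change of -0.12 over 17 tested genes, against -0.087 over all genes. After median ratio scaling it was -0.032, against 0.0047. On the deposited FPKM 13 of the 17 (76.5%) were below 0, against 68.3% of all genes, and 4 above. None was called, and 2 (11.8%), Fastk and Fastkd1, lay lower in every POLG library, against 12.9% of all genes. Lrpprc, which binds and stabilises mitochondrial mRNAs, was at 16.3, 19.0, 16.8 and 16.0 FPKM in POLG E to H, against 18.2, 18.6, 17.4 and 17.1 FPKM in WT A to D. POLG F was the highest of all 8 and the other 3 POLG libraries were lowest (log2 fold change -0.066, 95% interval -0.24 to 0.11, limma adjusted p = 0.649). After median ratio scaling the value was 0.045.

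Slirp, the partner of Lrpprc, was at 3.49, 2.77, 5.49 and 3.80 FPKM in POLG E to H, against 4.44, 4.88, 5.27 and 6.36 FPKM in WT A to D. POLG G lay inside the WT range, the other 3 below it, and the wide spread left a log2 fold change of -0.37 (SE 0.167, 95% interval -0.75 to 0.0077, limma adjusted p = 0.232).

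Fastk, founder of a family of mitochondrial RNA-binding proteins, was at 22.2, 22.3, 20.7 and 21.4 FPKM in POLG E to H, against 25.9, 26.6, 22.9 and 26.8 FPKM in WT A to D. WT C came nearest to the POLG libraries, and the log2 fold change was -0.23 (SE 0.075, limma adjusted p = 0.132). Its relative Fastkd1 was at 2.02, 2.49, 2.05 and 1.73 FPKM in POLG E to H, against 2.72, 2.69, 3.40 and 2.69 FPKM in WT A to D. Again no POLG library reached the WT range (log2 fold change -0.34, SE 0.101, limma adjusted p = 0.110). Fastkd2, Fastkd5 and Tbrg4 of the same family had lower means in POLG with overlap, and Fastkd3 was below the filter at 0.588 FPKM in POLG and 0.842 FPKM in WT.

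Both parts of the RNA degradation complex overlapped between the groups. The exoribonuclease Pnpt1 averaged 3.85 ± 0.597 FPKM in POLG and 4.80 ± 0.496 FPKM in WT, and the helicase Supv3l1 7.63 ± 1.34 FPKM in POLG and 8.19 ± 0.756 FPKM in WT (SD, n = 4 each). The poly(A) polymerase Mtpap averaged 1.83 FPKM in POLG and 2.07 FPKM in WT, whereas the deadenylase Pde12 was at 1.07 and 1.06 FPKM and the oligoribonuclease Rexo2 at 7.30 and 7.32 FPKM in the same order. Angel2, of the deadenylase-related CCR4 family, averaged 2.64 FPKM in POLG and 3.23 FPKM in WT. Grsf1, an RNA-binding protein of mitochondrial RNA granules, was the most abundant of the 48 at 45.4 FPKM in POLG and 47.4 FPKM in WT, and its groups overlapped.

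Ptcd2, a pentatricopeptide protein required in mouse for processing of the cytochrome b transcript, had the highest fold change of the 40. It was at 22.9, 24.2, 25.7 and 21.6 FPKM in POLG E to H, against 20.4, 19.7, 18.1 and 22.1 FPKM in WT A to D. WT D reached into the POLG range, above POLG H, and the log2 fold change was 0.22 (95% interval 0.024 to 0.42, limma adjusted p = 0.182). After median ratio scaling it was 0.33 and passed the test (adjusted p = 0.0403). Ptcd1 averaged 7.41 FPKM in POLG and 6.86 FPKM in WT, and Ptcd3, a protein of the small mitochondrial ribosomal subunit, 8.43 FPKM in POLG and 9.56 FPKM in WT, both with overlap.

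**Figure D3:**
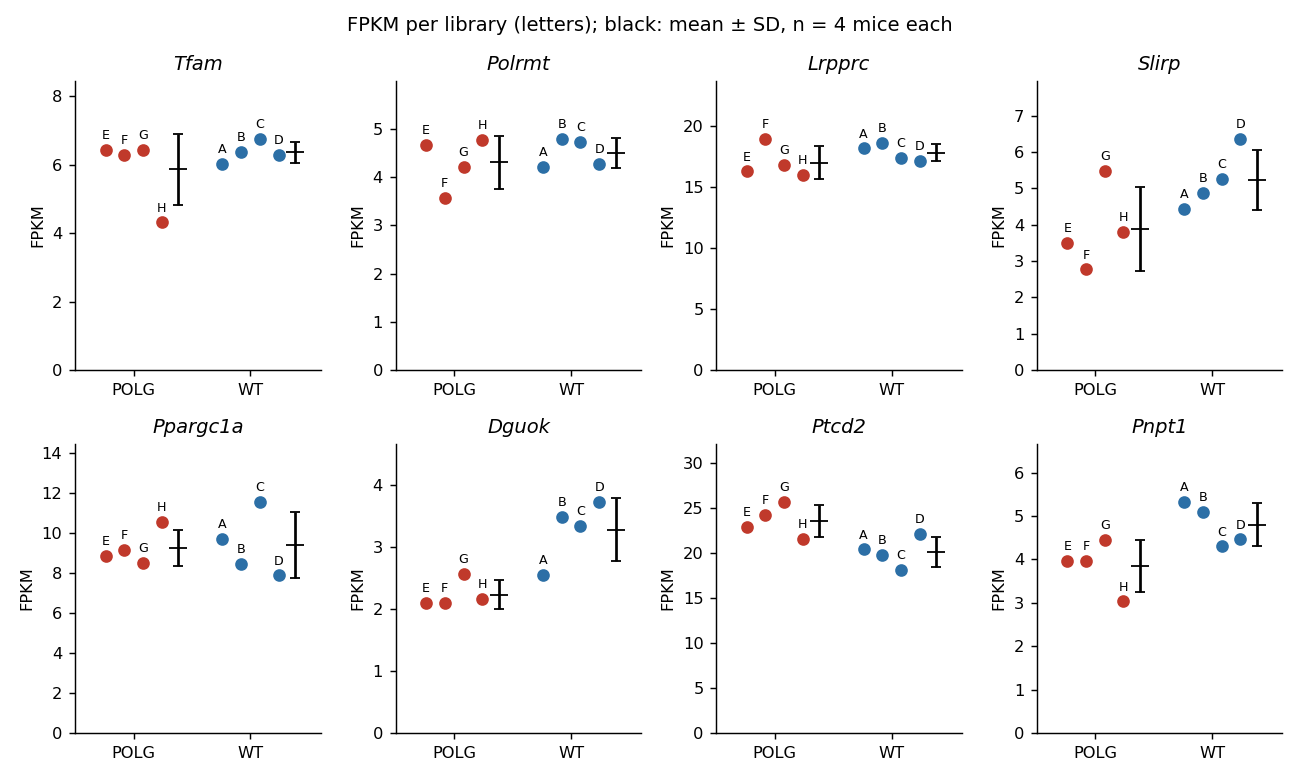
FPKM of 8 genes whose groups overlapped, from transcription, RNA stability, nucleotide supply and biogenesis, 1 point per library with its letter, POLG left and WT right, black marks giving mean ± SD of 4 mice; axes start at 0. Tfam is low only in POLG H (4.31 FPKM), and Ptcd2 is the gene shown with the higher POLG mean, 23.6 FPKM against 20.1 FPKM in WT.

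Among biogenesis regulators the median log2 fold change was -0.022 over 4 tested genes, against -0.087 over all genes. After median ratio scaling it was 0.081, against 0.0047. None was called and, against 12.9% of all genes, 1 (25%) lay lower in every POLG library. That was Esrra, the estrogen-related receptor alpha, at 25.3, 23.6, 24.6 and 21.4 FPKM in POLG E to H, against 25.7, 31.0, 31.4 and 33.8 FPKM in WT A to D. WT A lay just above the POLG libraries and the other 3 WT libraries well above, with a log2 fold change of -0.35 (SE 0.098, limma adjusted p = 0.0954). After median ratio scaling the groups overlapped.

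Ppargc1a, the coactivator that drives mitochondrial biogenesis, was at 8.82, 9.16, 8.49 and 10.5 FPKM in POLG E to H, against 9.69, 8.44, 11.6 and 7.87 FPKM in WT A to D. All POLG values lay within the WT range (log2 fold change -0.010, 95% interval -0.28 to 0.26, limma adjusted p = 0.974). Its relative Ppargc1b averaged 3.17 ± 1.03 FPKM in POLG and 2.74 ± 0.714 FPKM in WT, and the ETS factor Gabpa 5.43 ± 0.466 FPKM in POLG and 5.61 ± 0.882 FPKM in WT (SD, n = 4 each). Nrf1 was below the filter at 0.465 FPKM in POLG and 0.565 FPKM in WT.

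**Figure D4:**
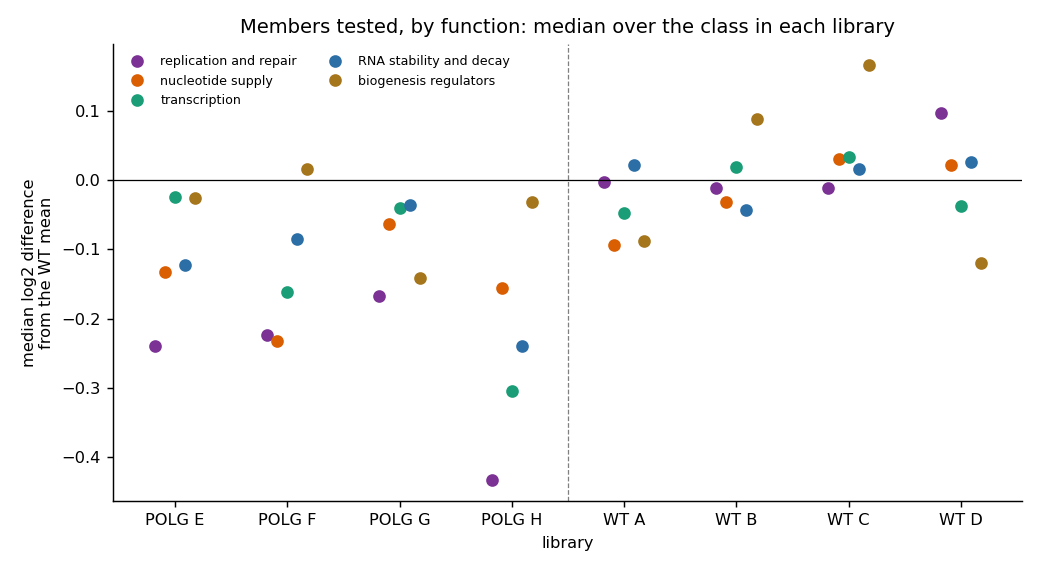
Median log2 difference from the WT mean over the tested genes of each function, in each library, POLG E to H left of the dashed line and WT A to D right of it. Replication and repair lies at -0.24, -0.22, -0.17 and -0.43 in POLG E to H and between -0.012 and 0.098 in WT, while the biogenesis regulators of both groups intermix.

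The libraries did not contribute equally. Of the 40 tested genes, the lowest POLG value was in H for 26, in G for 6, in F for 5 and in E for 3, whereas the lowest WT value was spread over A to D (11, 10, 10 and 9). The median difference from the WT mean over the 40 was -0.12, -0.15, -0.079 and -0.25 on the log2 scale in POLG E to H. These counts and medians are on the deposited FPKM. The median ratio scaling factor, taken over genes in general, was 0.871 in H, against 0.987 to 1.01 in E, F and G. Low values in H were thus not particular to the 40, and the share of all genes lowest in H was not counted. Without POLG H, 8 of the 40 (20%) lay lower in every POLG library, against 14.1% of all genes, and 1 (2.5%) lay higher, against 5.91%. Leaving out WT C and D, the libraries with high Myl7 and Sln, 11 of the 40 (27.5%) lay lower, against 23.3% of all genes, and 3 (7.5%) higher, against 6.42%. The genes added to the 8 were then Top1mt, Pnpt1 and Gabpa, which lay lower in POLG, and Lig3, Ptcd1 and Ptcd2, which lay higher. Without these libraries the log2 fold change of Top1mt was -0.45 in place of -0.27, that of Mterf3 -0.15 in place of -0.31, that of Slirp -0.24 in place of -0.37 and that of Ptcd1 0.27 in place of 0.11. For Lig3 it was 0.14 in place of -0.048.

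A further 63 genes of the same pathways, 50 of them tested, gave no call in either direction. Of these 50, 8 (16%) lay lower in every POLG library, against 12.9% of all genes, and 1 (2%) higher, against 2.96%. The log2 fold change was below 0 in 36 (72%), against 68.3% of all genes, with a median of -0.078 against -0.087. By list the medians were -0.12 over 20 genes of other mtDNA maintenance, -0.056 over 15 of other RNA handling and -0.084 over 15 of other biogenesis regulation. At an unadjusted limma p under 0.05, 9 of the 50 (18%) were lower and 1 (2%) higher, against the 17.6% and 4.61% of all genes.

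The RNAs on which this machinery acts were compared by their sums. The 13 mitochondrial mRNAs summed to 268187 ± 8759 FPKM in POLG and 262790 ± 11434 FPKM in WT (SD, n = 4 each, exact two-sided permutation test p = 0.371). For single mRNAs of these libraries, the authors reported by their own tests that mt-Co1 and mt-Nd5 were higher and mt-Cytb lower in POLG. A sum can hide such opposite changes, so it does not show that single mRNAs were unchanged. The 2 ribosomal RNAs summed to 21636, 16825, 18365 and 21639 FPKM in POLG E to H, against 14542, 14921, 7297 and 7518 FPKM in WT A to D. All POLG sums were above all WT sums (exact two-sided permutation test p = 0.0286, the smallest that 4 against 4 can give). The WT sums fell into A and B against C and D, which also differed in atrial and mesothelial markers, nuclear RNAs and depth. Ribosomal RNA is captured only in part by poly(A) selection, and how that differed between libraries was not tested.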

How the data were processed

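The FPKM values were deposited by the authors, who captured poly(A) RNA with a stranded kit, mapped paired reads to mm10 with HISAT2 and normalised in StringTie; cutadapt, FastQC and edgeR are also named in the submitters' processing notes, and versions were not given in the sources used here. In the table, 0.0001 stands in place of 0. The deposited columns of fold change and its log2 were not used. Since the table holds FPKM, not counts, limma 3.58.1 in R 4.3.3 was run with a trend on log2(FPKM + 1) for genes averaging 1 FPKM or more, with Benjamini-Hochberg adjustment. This pseudocount understates changes of low genes. Single sums were compared by an exact permutation test over 70 assignments. Low values were whole multiples of 1 fragment for only 47.4% to 49.3% of values within 2%, so reads were not recovered and depths are estimates. The script was tested on simulated data in which 200 of 10236 genes were changed. It recovered 0% of them at a true log2 change of 0.25, 37% at 0.5 and 87% at 1. Of the genes called, 8.64% were false at 0.5 and 6.45% at 1. A gene with a change near 0.25 can thus fail to pass although it differs. Groups came from the genotype labels, 1 library per mouse. Members and lists were chosen with earlier results of these data known. Values in every library were given for genes passing the test or without overlap and for Polg, Twnk, Tfam, Polrmt, Lrpprc, Slirp, Ppargc1a and Esrra by rule, and for Dguok and Ptcd2 after their values were seen. Alternatives were pseudocounts of 0.1 and 5, other filters, 3 scalings, limma without trend or with a robust prior, and leaving out each library; leaving out WT C and D together was chosen after seeing the data. Promoters came from RefSeq (GRCm38.p6) and the codon from GENCODE M21.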

Additional observations from a re-analysis of the deposited data

Results flagged for a closer look

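Over the 48 genes, 96 groups of 4 libraries were looked at for a library far from the other 3, and 6 were found; chance alone gives about 1 in 20. In POLG, Tfam was 4.31 FPKM in H against 6.28 to 6.44 FPKM in the other 3, Lig3 was 1.70 FPKM in E against 1.31 to 1.34 FPKM, and Dguok was 2.57 FPKM in G against 2.09 to 2.16 FPKM. In WT, Ssbp1 was 1.92 FPKM in C against 1.83 to 1.84 FPKM, Fastkd1 was 3.40 FPKM in C against 2.69 to 2.72 FPKM, and Rrm2b was 2.80 FPKM in A against 2.23 to 2.33 FPKM. The 6 values came from 5 libraries.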

How the results depend on the processing

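The count of genes lower in POLG was 1 (Endog) on the deposited FPKM. It was 0 without a filter, after median ratio scaling, without WT C and D, and when any single library was left out. With a filter at 5 FPKM it was 2 of the 18 tested (Endog and Twnk), against 4.94% of all genes, and the other limma alternatives gave 1. The unadjusted permutation test gave 8, which is the count without overlap again and not a second result. With 4 against 4, only groups that do not overlap reach a permutation p under 0.05, and 12.9% of all genes lay lower in this way. The count higher was 0, and 1 (Ptcd2) after median ratio scaling. The count without overlap was 8; it was 4 with a filter at 5 FPKM (22.2% of the 18 tested, against 15.3% of all genes), 5 after quantile normalization (4 lower and 1 higher, against 7.62% and 6.05%), 11 after scaling to the nuclear-encoded genes, Polg no longer among them (27.5% against 14.4%), 14 without WT C and D (11 lower, 3 higher, against 23.3% and 6.42% of all genes), and 9 to 13 when any single library was left out, 13 without POLG G (32.5% against 16.1%), where the share of all genes was 13.8% to 18.9% lower and 3.5% to 5.91% higher. Signs turned mostly for genes with a log2 fold change near 0. They also turned for Ppargc1b (0.15 on the deposited FPKM), Tfam (-0.11), Mtpap (-0.11) and Supv3l1 (-0.10). After median ratio scaling the values were Lig3 0.022, Tk2 0.076, Rrm2b 0.037, Polrmt 0.040, Lrpprc 0.045, Supv3l1 0.0030, Grsf1 0.056, Ppargc1a 0.096 and Gabpa 0.065. After quantile normalization they were Lig3 0.025, Tk2 0.076, Rrm2b 0.043, Polrmt 0.049, Lrpprc 0.0059, Ppargc1a 0.078 and Gabpa 0.077. With a pseudocount of 5 Tk2 was 0.00048, and with scaling to nuclear-encoded genes Pde12 was -0.018 and Rexo2 -0.040. Without WT C and D, Lig3 was 0.14, Tk2 0.13, Mtpap 0.020, Pde12 -0.11, Rexo2 -0.027 and Ppargc1a 0.026. Leaving out single libraries, ranges were Gabpa -0.12 to 0.035, Lig3 -0.11 to 0.032, Pde12 -0.035 to 0.061, Polrmt -0.099 to 0.013, Ppargc1a -0.082 to 0.085, Ppargc1b -0.0062 to 0.25, Rexo2 -0.082 to 0.067, Rrm2b -0.069 to 0.0093, Tfam -0.16 to 0.0058 and Tk2 -0.10 to 0.075. The cause of these changes was not tested, except that fewer genes enter with the stricter filter. No paired analysis was possible because the library letters are not shared between the groups. With 4 mice a group and FPKM in place of counts, the intervals of single genes were wide (-0.38 to 0.16 for Tfam), so genes that did not pass are not shown to be equal.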
